A study of Homo sapiens with 91 samples.

Results

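The transcripts of the ID genes ID1, ID2, ID3 and ID4 and of the E protein genes TCF3, TCF4 and TCF12 were followed in 3 human cancer cell lines treated with 2 agents directed at the kinase CDK9. The 7 genes were chosen by name, not by their values, and make up 7 of the 62710 genes in the count tables. The lines were MOLT4 (acute lymphoblastic leukemia), PSN1 (pancreatic adenocarcinoma) and RH4 (rhabdomyosarcoma, named RH1 in the series' design text). Cells were given DMSO as vehicle, KB-0742 (a CDK9 inhibitor, called the inhibitor here) or KI-CDK9d-32 (a CDK9 degrader, called the degrader here). MOLT4 was sampled after each of the 3 treatments at 2, 4 and 8 h, PSN1 at the same times but without inhibitor libraries at 2 h, and RH4 at 4 and 8 h only. All 91 libraries came from cells grown in RPMI medium with serum, none of the labels gives a dose, and 22 of the 23 groups had 4 biological replicates. The remaining group, vehicle-treated MOLT4 at 4 h, had 3. The labels do not say whether replicates came from separate cultures or wells, so the p-values measure the spread between these libraries, which may be technical.

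E proteins are helix-loop-helix transcription factors that bind E-box DNA as dimers, often with a tissue-restricted partner such as TAL1 in T cells or MYOD1 in muscle. ID proteins have the dimerization domain but no DNA-binding region, so they hold E proteins in dimers that cannot bind DNA. ID genes are known targets of BMP and SMAD signaling, and their transcripts and proteins turn over quickly. In T-cell precursors E proteins drive lineage genes, and in muscle precursors ID proteins are known to hold back differentiation. CDK9 with a cyclin T forms P-TEFb, which releases paused RNA polymerase II into elongation. TCF4 here is the E protein gene, not the Wnt pathway factor that once shared its name.

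In GENCODE release 29 on GRCh38 the 3 ID genes that were expressed are short: ID1 lies on chromosome 20 at 31605283 to 31606515 (plus strand, 1.2 kb), ID2 on chromosome 2 at 8678845 to 8684453 (plus strand, 5.6 kb) and ID3 on chromosome 1 at 23557918 to 23559794 (minus strand, 1.9 kb). ID4 lies on chromosome 6 at 19837386 to 19840684 (plus strand, 3.3 kb). The E protein genes are longer, with TCF3 on chromosome 19 at 1609290 to 1652605 (minus strand, 43.3 kb), TCF12 on chromosome 15 at 56918623 to 57299281 (plus strand, 380.7 kb) and TCF4 on chromosome 18 at 55222331 to 55664787 (minus strand, 442.5 kb). The RefSeq promoters of the ID genes that changed with treatment are given from 250 bases before to 50 bases after the start, 5′ to 3′ on the gene's strand, because these 3 genes responded differently between lines. Capitals mark matches on either strand to the E-box CANNTG, the TATA box TATAAA or the CCAAT box CCAAT. The windows are chr20:31605039-31605338 for ID1, chr2:8681806-8682105 for ID2 and chr1:23559452-23559751 for ID3, on GRCh38.p14.
ID1: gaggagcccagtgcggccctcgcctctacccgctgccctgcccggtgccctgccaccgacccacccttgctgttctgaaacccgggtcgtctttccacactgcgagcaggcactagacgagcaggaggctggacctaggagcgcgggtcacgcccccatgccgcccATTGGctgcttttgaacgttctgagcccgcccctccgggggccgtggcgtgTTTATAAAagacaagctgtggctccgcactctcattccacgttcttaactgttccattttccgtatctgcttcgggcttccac
ID2: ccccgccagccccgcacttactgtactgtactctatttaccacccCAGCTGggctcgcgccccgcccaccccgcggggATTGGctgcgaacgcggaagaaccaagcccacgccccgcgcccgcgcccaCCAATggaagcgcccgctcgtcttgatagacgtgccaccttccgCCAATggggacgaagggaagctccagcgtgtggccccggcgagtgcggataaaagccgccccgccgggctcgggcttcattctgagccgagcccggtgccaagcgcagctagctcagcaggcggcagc
ID3: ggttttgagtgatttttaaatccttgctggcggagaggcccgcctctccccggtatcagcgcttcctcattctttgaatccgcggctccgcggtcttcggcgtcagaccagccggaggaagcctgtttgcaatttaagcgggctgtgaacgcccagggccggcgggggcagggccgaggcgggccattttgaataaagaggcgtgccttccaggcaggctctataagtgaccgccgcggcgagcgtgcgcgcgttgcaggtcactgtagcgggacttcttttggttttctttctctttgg
The ID1 window held TATAAA at -31, overlapped by its reverse-strand match at -33, and a CCAAT box on the reverse strand at -84. The ID2 window held 1 E-box, CAGCTG at -205, and CCAAT boxes at -172 (reverse strand), -122 and -78. No match to these motifs was found in the ID3 window. The RefSeq start of ID2 lies inside the longer GENCODE gene. Among 35116 RefSeq promoter windows of the same length, 68.7% held the E-box letters, 11.5% TATAAA and 34.6% CCAAT, so the matches are a description and not binding sites.

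Gene counts ranged from 1598283 to 3240753 per library. Of the marker lists for the 3 lines, the matching list had the highest summed level in 35 of 35 MOLT4, 32 of 32 PSN1 and 24 of 24 RH4 libraries, although CDH1, an epithelial cadherin, was under 1 CPM (a counts-per-million value) in PSN1. A pair of PSN1 libraries stood apart: vehicle and degrader replicates 4 at 2 h held 58.8 and 64.3 CPM of the 10 RH4 markers, with MYOD1 at 30 and 15 counts, against a median of 3.40 and a highest value of 20.1 in the other 30 PSN1 libraries. In MOLT4, replicate 3 of degrader at 8 h, of inhibitor at 4 h and of degrader at 4 h held 61.5%, 49.4% and 39.5% spike-in counts, where the other replicates of those groups reached at most 37.0%, 20.9% and 23.9%. Member calls that were lost without these MOLT4 libraries are named below. Some other results, not all, are also given without them or without the PSN1 pair. Equal spike-in RNA had been added to each lysate, so 2 scalings were set side by side: TMM, which compares a gene with most other genes, and spike-in scaling, which compares its RNA with the amount added per lysate. Under TMM the median log2 fold change against vehicle over all genes lay between -0.18 and 0.00 in the 15 comparisons, and under spike-in scaling it was -0.41, -1.13 and -2.99 for the degrader in MOLT4 at 2, 4 and 8 h, -0.86, -1.38 and -1.41 for the inhibitor there, -0.29, -0.61 and -1.01 for the degrader in PSN1, -0.92 and -0.94 for the inhibitor in PSN1 at 4 and 8 h, -0.36 and -0.92 for the degrader in RH4, and -1.12 and -1.66 for the inhibitor in RH4. A value under spike-in scaling can be low because fewer cells were lysed or because each cell held less RNA, and these cannot be told apart. Mitochondrial counts moved with treatment as well, from a mean of 11.6% in MOLT4 vehicle at 8 h to 24.0% with degrader, and their part in the results below was not tested.

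Untreated differences between the lines came first. RH4 had the highest ID1 and ID3, PSN1 the highest ID2, and MOLT4 the highest TCF3. Levels between genes are compared in transcripts-per-million units (TPM), which account for transcript length. Mean ID1 was 9.87 ± 4.12 TPM in MOLT4 vehicle libraries (SD, n = 11), 37.9 ± 13.1 TPM in PSN1 (SD, n = 12) and 165 ± 21.1 TPM in RH4 (SD, n = 8). For ID2 the order was different, at 4.05 ± 2.68, 68.6 ± 20.2 and 14.7 ± 3.75 TPM in MOLT4, PSN1 and RH4. ID3 spanned the widest range, from 0.885 ± 1.77 TPM in PSN1 through 35.6 ± 8.71 in MOLT4 to 324 ± 35.8 in RH4. The E protein genes lay closer together. TCF3 was at 17.6 ± 2.66 TPM in MOLT4, 5.77 ± 1.52 in RH4 and 3.70 ± 0.649 in PSN1. TCF12 ran from 32.9 ± 4.09 TPM in RH4 through 11.4 ± 1.15 in MOLT4 to 4.45 ± 1.00 in PSN1, and TCF4 had the lowest mean of the E protein genes in every line, at 5.51 ± 2.88, 2.73 ± 0.787 and 1.43 ± 0.764 TPM in the same order. In RH4 TCF4 and TCF3 lay within 1 SD of each other.

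**Figure D1:**
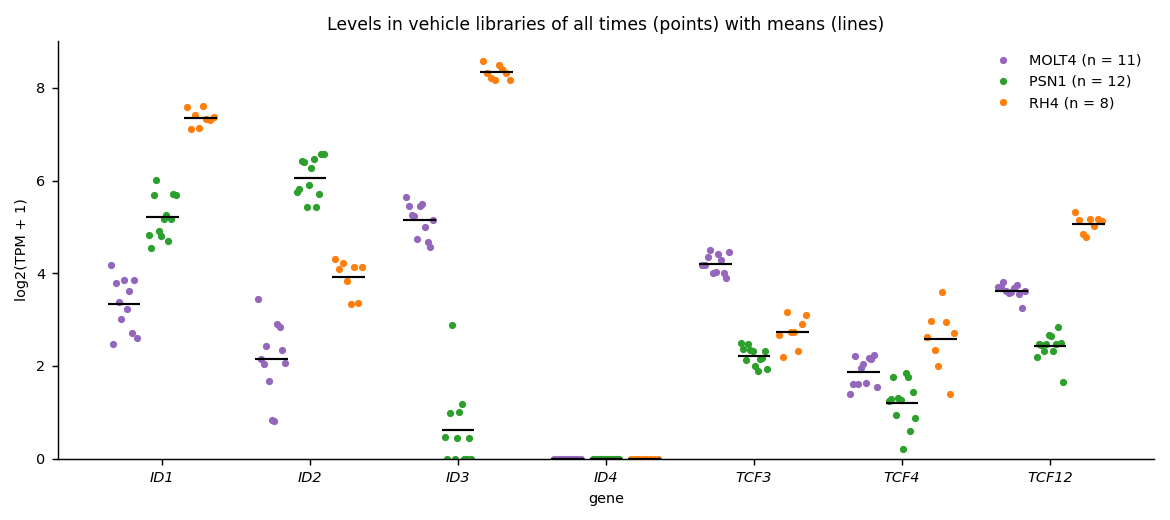
Level of the 7 genes in vehicle libraries of each line, as log2(TPM + 1), with 1 point per library and a bar at the mean. ID3 is near 0 in most PSN1 libraries and highest of the 7 genes in RH4, and ID4 is at 0 in every library.

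Tests of the vehicle libraries at 4 and 8 h, with time as a covariate, called all 18 differences that could be tested. ID3 entered this fit through MOLT4 and RH4, as PSN1 vehicle held only 8 ID3 counts at 4 h and 1 at 8 h. Its calls against PSN1 restate that near absence and add no support. In MOLT4 against PSN1, 4 members were higher and 2 lower where 65.8% of all genes were called. Against RH4, where 64.4% of genes were called, 1 was higher and 5 lower in MOLT4, and in PSN1 against RH4, where 64% were called, again 1 was higher and 5 lower. So most genes differed between these lines, and a called member is not unusual among them. ID3 was lower in MOLT4 than in RH4, with a log2 fold change of -3.29 ± 0.14 (± its standard error, here and in each fold change that follows) and an adjusted p of 3.29e-21 (edgeR quasi-likelihood test, Benjamini-Hochberg adjustment, as for every other adjusted p). ID2 was lower in MOLT4 than in PSN1 (-4.56 ± 0.26, adjusted p = 5.62e-17) and higher in PSN1 than in RH4 (2.76 ± 0.21, adjusted p = 1.13e-13). TCF3 was higher in MOLT4 than in PSN1 (2.02 ± 0.15, adjusted p = 6.40e-14) and than in RH4 (1.57 ± 0.15, adjusted p = 1.83e-11). The smallest differences were the least firm. TCF4 in MOLT4 against PSN1 (0.81 ± 0.33, adjusted p = 0.0283) lost its call without MOLT4 vehicle replicate 3 at 4 h, PSN1 vehicle replicate 3 at 4 h, or PSN1 vehicle replicate 2 or 4 at 8 h (adjusted p up to 0.0627). TCF4 in MOLT4 against RH4 (-0.77 ± 0.30, adjusted p = 0.0240) lost it without MOLT4 vehicle replicate 4 at 4 h, MOLT4 vehicle replicate 4 at 8 h, or RH4 vehicle replicate 1 at 8 h (adjusted p up to 0.0926), and TCF3 in PSN1 against RH4 (-0.45 ± 0.16, adjusted p = 0.0120) without RH4 vehicle replicate 3 at 4 h (adjusted p = 0.0504). Vehicle libraries were also compared over time. None of 28 tests was called for vehicle at 4 h against 2 h or 8 h against 4 h by edgeR or DESeq2, and none had an unadjusted p under 0.05, beside 0% and 0% of all genes in MOLT4, 0.00802% and 0% in PSN1 and, for 8 h against 4 h, 0% in RH4.

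ID4 had 0 counts in all 91 libraries, which allows up to 0.0332, 0.0341 and 0.0480 CPM over all libraries of MOLT4, PSN1 and RH4 (the level of 3 counts, for counting error only). ID3 was close to absent from PSN1, with 69 counts in 32 libraries. Of these, 17 and 30 lay in the vehicle and degrader replicates 4 at 2 h that also carried RH4 markers. In the other 30 PSN1 libraries ID3 had 22 counts in all and at most 4 in any library, and it was not tested for treatment within PSN1. Summed over each family, ID transcripts exceeded E protein transcripts by a median ratio of 1.49 in MOLT4 vehicle libraries (1.21 to 2.48), 10.9 in PSN1 (6.38 to 25.0) and 11.7 in RH4 (9.99 to 12.6). The MOLT4 range lay wholly under those of the other lines.

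Treatment was read against vehicle of the same line and time in 15 comparisons, giving 85 tests of members. Of these, 17 were called higher, 18 lower and 50 neither, 44 had an unadjusted p under 0.05, and DESeq2 called 35. Over all genes in the same comparisons, 12.3% of tests were called higher and 13.1% lower, against 20% and 21.2% of the member tests. Groups did not overlap in 36 of the 85 tests, or 42.4%, beside 27.3% of the tests of all genes. ID1, ID2 and ID3 accounted for 15 of the 18 lower calls. TCF12 accounted for 10 of the 17 higher ones, none of which was called higher with spike-in scaling. Under that scaling the split turned to 1 higher and 42 lower, the single higher call being ID2 in MOLT4 after 8 h of degrader. On another scale, mean TPM without spike-ins, the direction went the other way in 3 of the 17 higher and none of the 18 lower calls: TCF12 in MOLT4 with inhibitor at 2 h and degrader at 8 h, and ID1 in RH4 with inhibitor at 8 h. In TPM the treated and vehicle libraries overlapped in all 10 higher calls of TCF12.

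**Figure D2:**
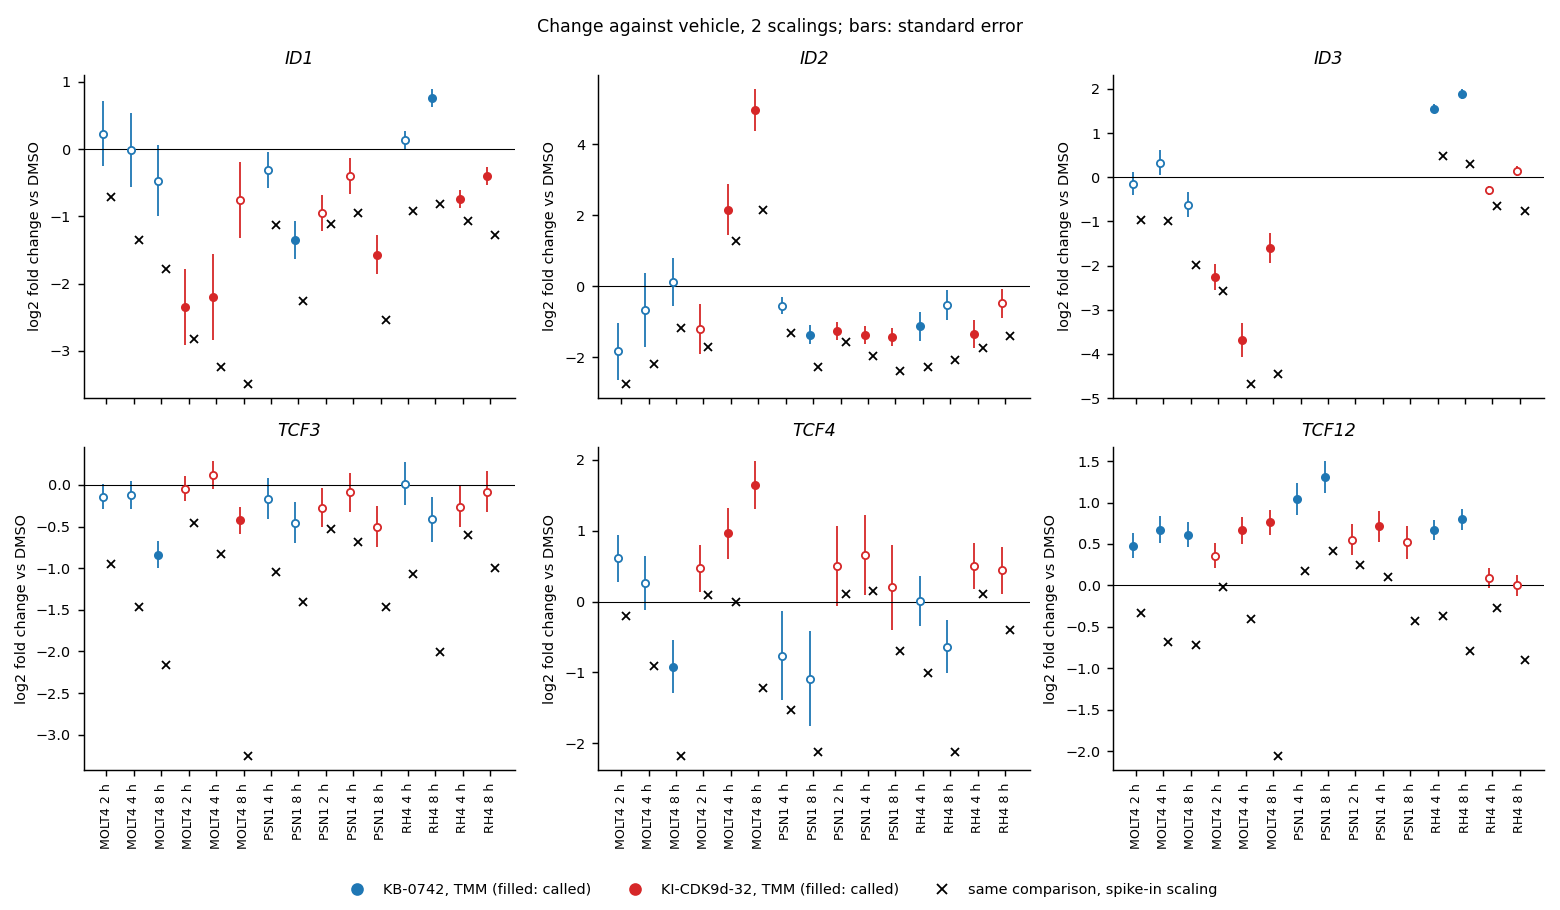
Log2 fold change against vehicle of the same line and time with its standard error, for 6 members in 15 comparisons, with filled points where the adjusted p was under 0.05 and crosses for spike-in scaling. ID2 in MOLT4 reaches 4.96 with degrader at 8 h while every ID2 value in PSN1 is below 0, and the crosses for TCF12 lie under its points.

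In MOLT4 ID1 and ID3 fell early with degrader, and ID2 rose later. With degrader at 2 h, 2 members were lower, none higher and 4 uncalled, where 9.98% of all genes were called. At 4 h, 3 were higher and 2 lower where 32.6% were called, and at 8 h again 3 higher and 2 lower where 49.6% were called. With inhibitor no ID gene was called on the TMM scale in MOLT4 at any time. There, 1 member was higher at 2 h, 1 higher at 4 h, and 1 higher and 2 lower at 8 h, beside 26.1%, 35.8% and 49.2% of all genes. In TPM, however, MOLT4 inhibitor libraries lay under vehicle without overlap for ID3 at 2 and 8 h and for ID2 at 2 h.

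ID3, the most abundant ID transcript of untreated MOLT4, read 35.3, 31.4, 27.8 and 26.8 CPM (TMM scale) in the 4 vehicle libraries at 2 h and 5.88, 5.38, 4.44 and 9.47 CPM with degrader. The groups did not overlap. Its log2 fold change was -2.25 ± 0.30 (adjusted p = 2.91e-07). At 4 h vehicle read 18.8, 31.3 and 32.1 CPM and degrader 0.370, 5.33, 1.00 and 1.22 CPM, a fall of 12.8-fold (-3.68 ± 0.39, adjusted p = 1.20e-10), with replicate 2 of the degrader far above the others of its group and still under every vehicle library. Without that library the 4 h value was -5.03 against vehicle and -5.35 against inhibitor. By 8 h the gap was smaller, at 21.5, 17.8, 17.6 and 24.9 CPM for vehicle and 11.8, 7.93, 2.77 and 3.51 CPM for degrader (-1.61 ± 0.34, adjusted p = 8.40e-05). With the inhibitor ID3 was at -0.15 ± 0.26, 0.33 ± 0.29 and -0.62 ± 0.29 at 2, 4 and 8 h, with adjusted p of 0.730, 0.392 and 0.0705. In TPM the inhibitor libraries lay under vehicle without overlap at 2 h (21.0 to 27.9 against 36.65 to 49). The same held at 8 h (7.67 to 12.04 against 22.8 to 34.6), while the groups overlapped at 4 h. Whether inhibitor lowered ID3 in MOLT4 thus depended on the scale. Degrader set directly against inhibitor was lower for ID3 at 2 h (-2.10 ± 0.30, adjusted p = 9.62e-07), 4 h (-4.01 ± 0.38, adjusted p = 2.57e-12) and 8 h (-0.99 ± 0.36, adjusted p = 0.0160). The call at 8 h was lost without degrader replicate 3 or 4 (adjusted p up to 0.0937) and without the 3 high spike-in libraries (-0.78, adjusted p = 0.0681).

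ID1 started lower and moved the same way early on. Vehicle read 13.4, 3.61, 10.7 and 7.75 CPM at 2 h and degrader 3.71, 0.897, 0.342 and 1.78 CPM (-2.35 ± 0.57, adjusted p = 0.00361), and the highest degrader library was just above the lowest vehicle library. Without that degrader library, replicate 1, the 2 h value was -3.05, and -3.28 against inhibitor. At 4 h it read 5.55, 10.9 and 6.53 CPM in vehicle and 2.22, 2.28, 1.00 and 0.609 CPM with degrader (-2.20 ± 0.63, adjusted p = 0.00595), without overlap. At 8 h the values were 8.72, 4.68, 11.6 and 4.21 CPM and 3.93, 7.32, 2.77 and 2.93 CPM, and the difference was not called (-0.75 ± 0.57, adjusted p = 0.282, 95% interval -1.86 to 0.36). Against the inhibitor, degrader libraries were lower at 2 h (-2.58 ± 0.57, adjusted p = 8.48e-04) and 4 h (-2.18 ± 0.63, adjusted p = 0.00580), while 8 h gave -0.28 ± 0.59 (adjusted p = 0.707). The call at 4 h was lost without the high spike-in libraries, at -1.80 with an adjusted p of 0.0657. Counts behind ID1 in MOLT4 were low, at most 59 in a library.

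The largest rise of any member against vehicle was that of ID2 in MOLT4 with the degrader at 8 h. Vehicle libraries held 2.73, 3.74, 2.47 and 2.27 CPM, inhibitor libraries 2.71, 4.71, 3.15 and 1.90 CPM and degrader libraries 147, 83.0, 73.8 and 52.1 CPM. Every degrader library was above every vehicle and inhibitor library. The 10 RH4 markers also summed higher in these degrader libraries, at 71.44 to 95 CPM against 10.57 to 22.98 CPM in vehicle and 23.5 to 30.6 CPM with inhibitor. Of the 10, MYL4, ACTC1, CHRNA1 and MYH3 had counts there and the other 6, among them the defining MYOD1, MYOG and DES, had 0 in all 4 libraries. The rise against vehicle was 31.2-fold (4.96 ± 0.58, adjusted p = 8.50e-09) and against inhibitor 28.7-fold (4.85 ± 0.60, adjusted p = 1.97e-08). With spike-in scaling it was smaller and still called (2.15, adjusted p = 0.00419), 5.14 above the median of all genes, and without the high spike-in libraries it was 5.07 with TMM and 2.45 with spike-in scaling. At 4 h the degrader libraries already read 6.67, 11.04, 2.00 and 4.26 CPM against 2.38, 0.838 and 0.816 CPM in vehicle (2.16 ± 0.73, adjusted p = 0.0221), with overlapping ranges. That earlier call rested on few counts, was lost without vehicle replicate 3 or 4 or degrader replicate 2 (adjusted p up to 0.107), and was 2.84 without vehicle replicate 1. Degrader was also above inhibitor at 4 h (2.84 ± 0.84, adjusted p = 0.00836), and at 3.89 without inhibitor replicate 2. At 2 h values were 6.15, 1.94, 1.82 and 2.38 CPM in vehicle and 4.02, 0.598, 0 and 0.592 CPM with degrader, a difference that was not called (-1.20 ± 0.71, adjusted p = 0.328). The antisense gene ID2-AS1 had 4 counts in all 35 MOLT4 libraries, although reads of overlapping genes cannot be assigned by strand in these unstranded libraries.

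Among the E protein genes of MOLT4, TCF12 was called higher with both agents, TCF4 higher with degrader and lower with inhibitor, and TCF3 lower with both at 8 h. The rises turned to values below 0 with spike-in scaling and the falls did not. TCF12, the HEB factor, read 51.8, 45.5, 41.2 and 48.2 CPM in vehicle at 8 h, 106, 67.7, 67.3 and 74.9 CPM with degrader and 66.4, 79.6, 77.3 and 63.5 CPM with inhibitor. It rose relative to other genes with degrader (0.76 ± 0.16, adjusted p = 5.59e-05) and fell per lysate, with a spike-in scaled value of -2.05 (adjusted p = 2.23e-05). With inhibitor it was 0.61 ± 0.15 (adjusted p = 7.54e-04), against -0.71 (adjusted p = 0.159) with spike-in scaling. The same opposition held at 4 h, where TMM gave 0.67 ± 0.16 for degrader and 0.67 ± 0.16 for inhibitor (adjusted p = 0.00112 and 9.67e-04) and spike-in scaling -0.41 and -0.68. At 2 h the inhibitor gave 0.48 ± 0.15 (adjusted p = 0.0120) with TMM and -0.33 with spike-in scaling. The degrader at 2 h was not called (0.36 ± 0.15, adjusted p = 0.116). In mean TPM, TCF12 was at 9.60 with degrader and 10.7 in vehicle at 8 h, with overlapping libraries.

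Relative to other genes, TCF4 went in opposite directions with the 2 agents. At 8 h vehicle read 7.90, 8.11, 7.75 and 4.53 CPM, degrader 14.4, 22.0, 32.3 and 21.1 CPM and inhibitor 3.16, 1.57, 4.50 and 5.32 CPM. Against vehicle TCF4 rose with degrader (1.64 ± 0.33, adjusted p = 4.84e-05), which spike-in scaling turned to -1.22, and fell with inhibitor (-0.92 ± 0.37, adjusted p = 0.0367). Degrader against inhibitor gave 2.56 ± 0.37 (adjusted p = 5.32e-08), and 0.95 with spike-in scaling. The fall with inhibitor was lost without any 1 of vehicle replicates 1, 2 and 3 or inhibitor replicates 1 and 2 (adjusted p up to 0.140). The 4 h call with degrader (0.96 ± 0.36, adjusted p = 0.0375, and -0.01 with spike-in scaling) was lost without any 1 of 5 of its 7 libraries, vehicle replicates 1 and 4 and degrader replicates 1, 2 and 3, with adjusted p up to 0.195, and without the high spike-in libraries (adjusted p = 0.0581). In TPM, degrader and vehicle libraries overlapped at 4 h (2.16 to 4.93 against 2.085 to 3.09) and 8 h (2.42 to 7.68 against 1.94 to 3.68). Inhibitor libraries at 8 h lay under vehicle in TPM without overlap.

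TCF3, the most abundant E protein transcript of MOLT4, read 75.2, 64.8, 62.7 and 85.1 CPM in vehicle at 8 h and 35.2, 34.6, 39.1 and 50.9 CPM with inhibitor. The groups did not overlap and the inhibitor lowered it (-0.84 ± 0.16, adjusted p = 2.53e-05). Degrader libraries read 33.4, 75.1, 54.4 and 50.9 CPM and were lower by a smaller amount (-0.43 ± 0.16, adjusted p = 0.0278). That smaller fall was lost with DESeq2 (adjusted p = 0.102), without the high spike-in libraries (0.0574) and without any 1 of vehicle replicates 1 and 4 and degrader replicates 1, 3 and 4 (up to 0.269). Degrader was above inhibitor at 8 h (0.41 ± 0.17, adjusted p = 0.0390, but -1.09 with spike-in scaling), a call lost without inhibitor replicate 1, 2 or 3, or degrader replicate 2 or 3 (adjusted p up to 0.332) and without the high spike-in libraries (adjusted p = 0.0535). In TPM this difference was absent, with overlapping libraries and means of 5.77 for degrader and 5.784 for inhibitor. Vehicle had a mean of 17.1 TPM, and the libraries of both agents lay under it without overlap (3.60 to 7.92 and 4.54 to 7.985 against 13.8 to 20.95). At 2 and 4 h both agents also lay under vehicle in TPM without overlap. In the direct comparison of the agents, 2 members were lower with degrader and none higher at 2 h, 2 lower and 1 higher at 4 h, and 1 lower and 3 higher at 8 h, beside 18.3%, 35.7% and 58.5% of all genes.

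**Figure D3:**
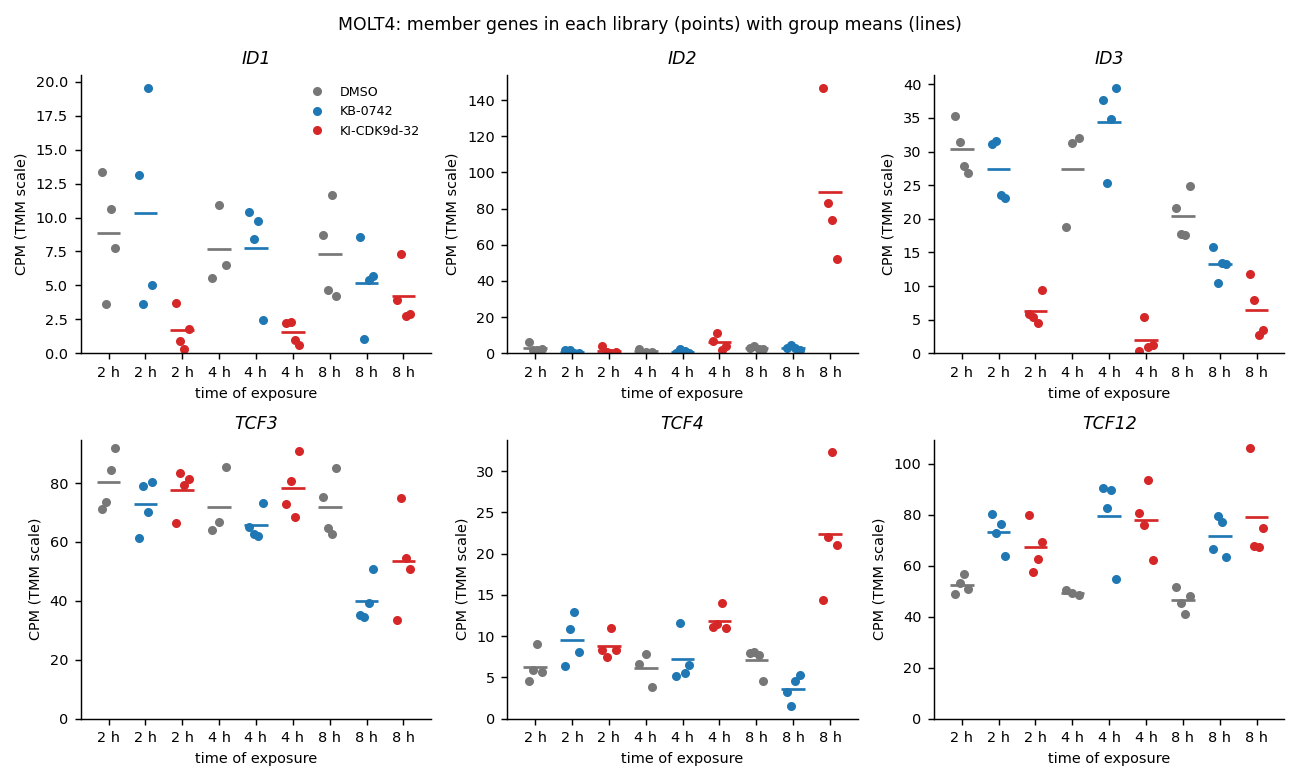
CPM (TMM scale) of ID1, ID2, ID3, TCF3, TCF4 and TCF12 in each MOLT4 library by time, with lines at group means, in grey for DMSO, blue for KB-0742 and red for KI-CDK9d-32. ID2 with degrader at 8 h lies between 52.1 and 147 CPM, above all other MOLT4 libraries, and ID3 with degrader at 4 h lies under 6 CPM.

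In PSN1 ID1 and ID2 were lower with both agents at 8 h, and TCF12 rose relative to other genes with inhibitor at 4 and 8 h and with degrader at 4 h. With degrader, 1 member was lower at 2 h where 0.481% of genes were called, 1 higher and 1 lower at 4 h (7.36% of genes), and 2 lower at 8 h (20.7%). With inhibitor, 1 was higher at 4 h (23.9%), and 1 higher and 2 lower at 8 h (30.2%).

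ID2, the leading ID transcript of PSN1, read 46.4, 36.5, 58.0 and 66.6 CPM in vehicle at 8 h, 17.5, 17.5, 24.9 and 17.4 CPM with degrader and 15.5, 16.5, 29.2 and 19.9 CPM with inhibitor. Both treated groups lay under every vehicle library. The fall was 2.70-fold with degrader (-1.43 ± 0.26, adjusted p = 6.34e-05) and 2.57-fold with inhibitor (-1.36 ± 0.26, adjusted p = 7.04e-05). With degrader it was already lower at 4 h, at 17.0, 13.2, 17.0 and 29.7 CPM against 31.4, 42.4, 60.3 and 62.8 CPM (-1.36 ± 0.25, adjusted p = 3.88e-04). At 2 h, 20.1, 15.9, 20.7 and 24.7 CPM stood against 39.1, 38.2, 61.9 and 55.8 CPM (-1.27 ± 0.25, adjusted p = 0.00434), and without both replicates 4 the 2 h value was -1.31 with an adjusted p of 0.0335. The inhibitor gave -0.54 ± 0.24 (adjusted p = 0.103) at 4 h, where its libraries held 27.8, 25.1, 45.8 and 35.9 CPM. The agents differed at 4 h (-0.82 ± 0.26, adjusted p = 0.0222), a call lost without inhibitor replicate 3 or 4, or degrader replicate 1, 2 or 3 (adjusted p up to 0.127). At 8 h they were at -0.07 ± 0.27 (adjusted p = 0.881), with a 95% interval of -0.60 to 0.46, which leaves room for a difference either way.

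ID1 in PSN1 fell by 8 h with each agent. Vehicle read 26.4, 33.9, 47.3 and 52.3 CPM, degrader 11.2, 12.3, 16.8 and 14.0 CPM (-1.57 ± 0.29, adjusted p = 9.33e-05) and inhibitor 12.1, 15.2, 22.4 and 13.1 CPM (-1.35 ± 0.28, adjusted p = 3.26e-04). At 4 h neither was called, with -0.40 ± 0.27 for degrader and -0.31 ± 0.27 for inhibitor. At 2 h degrader gave -0.95 ± 0.27 (adjusted p = 0.114), or -0.74 without both replicates 4. In TPM, treated libraries already lay under vehicle at 4 h (17.5 to 25.59 with degrader and 10.99 to 27.06 with inhibitor against 27.08 to 37.34). With degrader they also lay under vehicle at 2 h (11.6 to 21.5 against 22.3 to 63.3 TPM).

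TCF12 was the member that rose in PSN1. At 8 h it read 26.4, 22.9, 16.9 and 13.2 CPM in vehicle and 51.3, 42.8, 52.9 and 47.1 CPM with inhibitor, without overlap (1.30 ± 0.19, adjusted p = 1.53e-06, and 0.42, adjusted p = 0.302 with spike-in scaling). In TPM these groups overlapped, at 2.15 to 6.19 in vehicle and 6.12 to 8.965 with inhibitor. At 4 h the inhibitor gave 1.04 ± 0.19 (adjusted p = 7.99e-05) (0.17 with spike-in scaling). The degrader gave 0.71 ± 0.19 (adjusted p = 0.0145) at 4 h (0.11 with spike-in scaling), a call lost without degrader replicate 4 (adjusted p = 0.0533), and 0.52 ± 0.20 (adjusted p = 0.0542) at 8 h. Inhibitor libraries were above degrader libraries at 8 h (degrader minus inhibitor -0.79 ± 0.19, adjusted p = 0.00168). This was the only call between the agents at 8 h, where 24.8% of genes were called, and ID2 the only call at 4 h, where 17.4% were. TCF3 and TCF4 were not called in any PSN1 comparison of treatment. At 8 h TCF3 was at -0.50 ± 0.25 with degrader and -0.45 ± 0.25 with inhibitor, and TCF4, with at most 32 counts in a library, at 0.20 ± 0.60 and -1.09 ± 0.67.

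**Figure D4:**
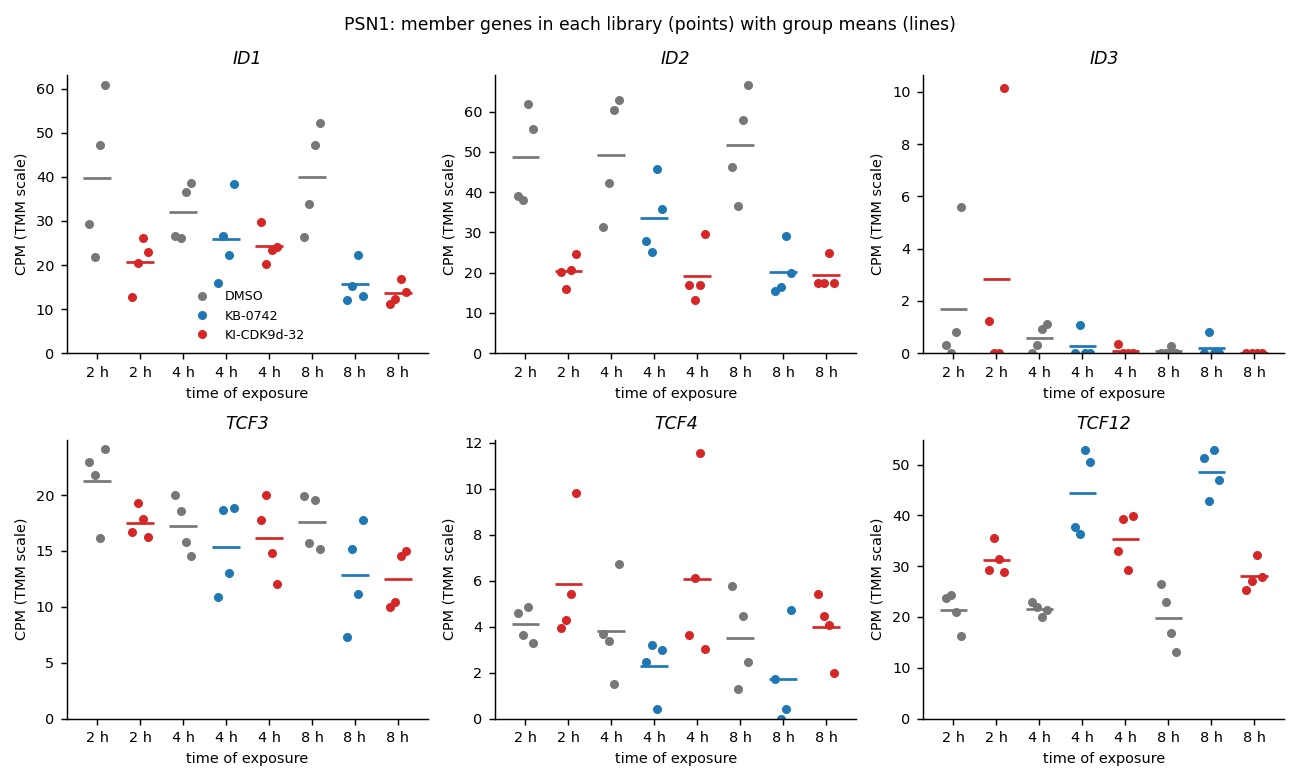
The 6 members in each PSN1 library by time, as CPM (TMM scale) with lines at group means, in grey for DMSO, blue for KB-0742 and red for KI-CDK9d-32. ID2 at 8 h is between 36.5 and 66.6 CPM in vehicle and under 30 CPM with either agent, and the 2 h replicates 4 hold the highest ID3 values.

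In RH4 ID3 and ID1 rose on the TMM scale with inhibitor and not with degrader, although with spike-in scaling ID3 was not called and ID1 was lower at 8 h, as it was in TPM. With degrader, 2 members were lower and none higher at 4 h, where 5.36% of genes were called, and 1 lower at 8 h (15.2%). With inhibitor, 2 were higher and 1 lower at 4 h (31.6%), and 3 higher at 8 h (45.4%).

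ID3, the most abundant of the 7 transcripts in RH4, read 248, 237, 251 and 218 CPM in vehicle at 8 h. Inhibitor libraries read 817, 728, 987 and 987 CPM and degrader libraries 292, 243, 252 and 265 CPM. Every inhibitor library was above every vehicle and degrader library. The rise was 3.69-fold (1.88 ± 0.11, adjusted p = 2.01e-17) at 8 h and 2.93-fold (1.55 ± 0.11, adjusted p = 2.36e-14) at 4 h. Per lysate it was not called, with spike-in scaled values of 0.31 (adjusted p = 0.267) at 8 h and 0.48 at 4 h, which were 1.96 and 1.60 above the median of all genes. The degrader gave -0.29 ± 0.11 at 4 h, which was not called, and at 8 h 0.14 ± 0.11 (adjusted p = 0.416) with TMM and -0.76 (adjusted p = 0.0150) with spike-in scaling. In TPM the degrader libraries lay under vehicle without overlap at 4 h (212 to 226.5 against 286 to 384) and 8 h (224 to 267 against 286 to 361). Degrader against inhibitor was -1.85 ± 0.11 (adjusted p = 1.37e-16) at 4 h and -1.74 ± 0.11 (adjusted p = 2.55e-16) at 8 h.

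ID1 in RH4 read 148, 123, 137 and 138 CPM in vehicle at 8 h and 226, 200.2, 256 and 242 CPM with inhibitor, a rise relative to other genes (0.76 ± 0.13, adjusted p = 6.15e-06) that turned to -0.81 (adjusted p = 0.00884) with spike-in scaling. TPM went down as well, from 158 to 195 in vehicle to 129 to 146 with inhibitor, without overlap, so the direction of ID1 here depended on the scale. Degrader libraries read 91.3, 86.9, 112 and 124 CPM (-0.40 ± 0.13, adjusted p = 0.0318). That fall was lost without any 1 of vehicle replicates 1, 3 and 4 or degrader replicates 1 and 2 (adjusted p up to 0.131). At 4 h the degrader value was -0.74 ± 0.13 (adjusted p = 7.76e-04) and the inhibitor value 0.14 ± 0.13 (adjusted p = 0.445). Degrader was under inhibitor at both times, with -0.88 ± 0.13 (adjusted p = 3.46e-06) at 4 h and -1.16 ± 0.13 (adjusted p = 4.22e-09) at 8 h.

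ID2, low in RH4, fell at 4 h with each agent. Vehicle read 9.71, 6.88, 13.5 and 8.98 CPM, degrader 3.18, 4.96, 3.57 and 3.67 CPM (-1.34 ± 0.39, adjusted p = 0.0355) and inhibitor 5.91, 4.87, 3.44 and 3.47 CPM (-1.13 ± 0.41, adjusted p = 0.0290). The degrader call was lost without vehicle replicate 1, 3 or 4, or degrader replicate 1, 3 or 4 (adjusted p up to 0.131). The inhibitor call was lost without vehicle replicate 3, or inhibitor replicate 3 or 4 (adjusted p up to 0.110). By 8 h neither was called (-0.49 ± 0.40 and -0.53 ± 0.43).

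TCF12, which pairs with MYOD1 in muscle precursors, read 86.7, 80.1, 97.5 and 80.6 CPM in vehicle at 8 h, 135, 197, 132 and 136 CPM with inhibitor and 91.8, 89.0, 84.9 and 79.4 CPM with degrader. It rose relative to other genes with inhibitor at 4 h (0.67 ± 0.12, adjusted p = 4.03e-05) and 8 h (0.80 ± 0.12, adjusted p = 9.23e-07), where spike-in scaling gave -0.37 and -0.79 (adjusted p = 0.00880). With degrader it was 0.09 ± 0.12 and 0.00 ± 0.12 at the same times. Degrader against inhibitor was -0.57 ± 0.12 (adjusted p = 4.20e-04) at 4 h, or 0.09 with spike-in scaling, and -0.80 ± 0.12 (adjusted p = 1.94e-06) at 8 h. TCF4 was higher with degrader than with inhibitor at 8 h (1.07 ± 0.37, adjusted p = 0.0195), at 24.7, 15.4, 10.7 and 15.7 CPM against 8.86, 7.01, 10.6 and 4.14 CPM, a call lost without degrader replicate 1 or inhibitor replicate 4 (adjusted p up to 0.0926). TCF3 was not called in any RH4 comparison of treatment, at -0.08 ± 0.25 with degrader and -0.41 ± 0.27 with inhibitor at 8 h. Between the agents, 3 members were lower with degrader and none higher at 4 h, and 3 lower and 1 higher at 8 h, beside 25.8% and 38.4% of all genes.

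**Figure D5:**
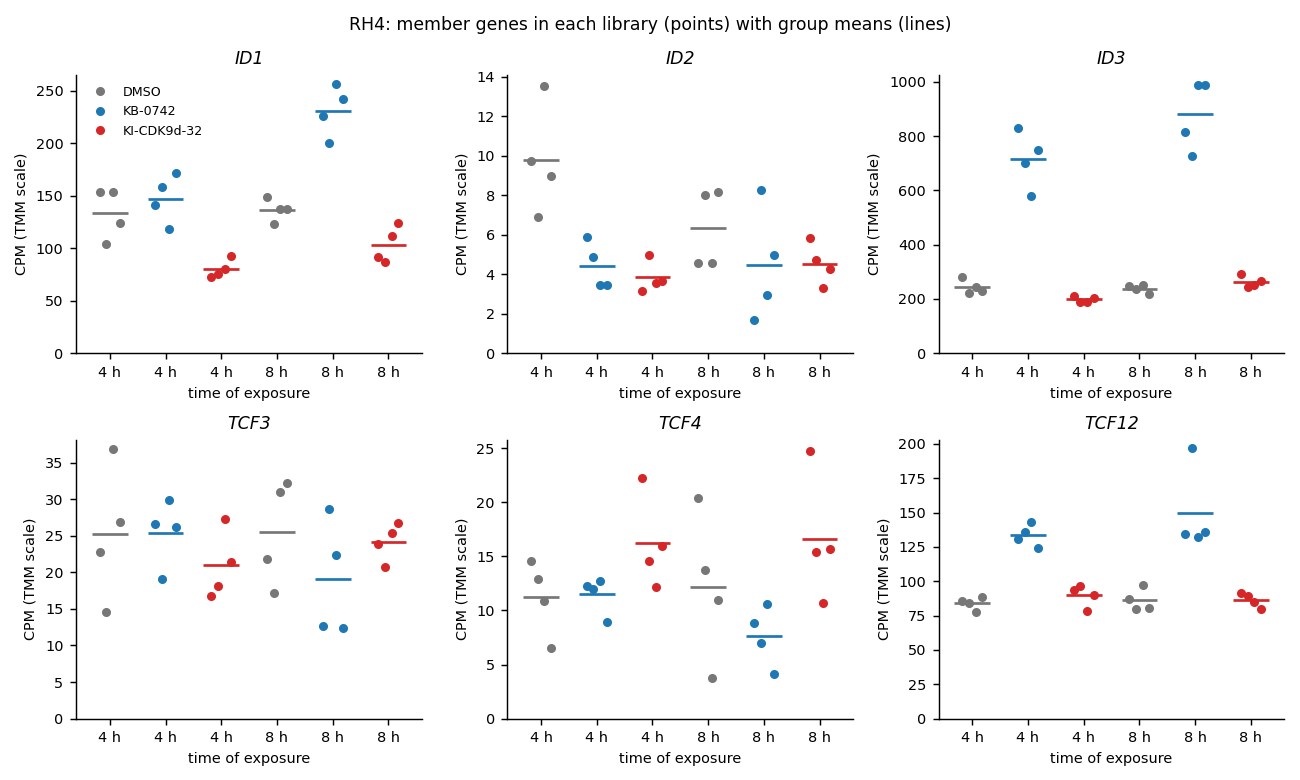
The 6 members in each RH4 library at 4 and 8 h, as CPM (TMM scale) with lines at group means, in grey for DMSO, blue for KB-0742 and red for KI-CDK9d-32. ID3 with inhibitor at 8 h lies between 728 and 987 CPM, above the vehicle range of 218 to 251 CPM, while degrader libraries reach 292 CPM.

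Effects at 8 h were then set against those at 4 h, as the difference between the log2 fold changes. Only 3 of 34 tests were called (12 with an unadjusted p under 0.05, 5 called by DESeq2). For the degrader in MOLT4, where 12.5% of genes were called, ID3 regained part of its loss (2.06 ± 0.55, adjusted p = 0.00675), a call lost without degrader replicate 1 at 8 h (adjusted p = 0.0649) and at 3.41 without degrader replicate 2 at 4 h. ID2 stood at 2.80 ± 0.99 (adjusted p = 0.0605). For the inhibitor in MOLT4, where 17.8% of genes were called, TCF3 lost more by 8 h (-0.71 ± 0.24, adjusted p = 0.0270), and for the inhibitor in RH4, where 8.52% were called, ID1 gained (0.62 ± 0.18, adjusted p = 0.0271). The TCF3 call was lost without vehicle replicate 1 or 3 at 4 h, vehicle replicate 4 at 8 h, inhibitor replicate 4 at 4 h, or inhibitor replicate 1 or 2 at 8 h (adjusted p up to 0.0826). The ID1 call was lost without vehicle replicate 1 or 3 at 4 h, vehicle replicate 2 at 8 h, inhibitor replicate 3 at 4 h, or inhibitor replicate 3 at 8 h (adjusted p up to 0.0879). None of these 3 was called with spike-in scaling, at 0.22 (adjusted p = 0.824) for ID3, -0.70 (adjusted p = 0.865) for TCF3 and 0.10 (adjusted p = 0.921) for ID1. No member was called for the degrader in PSN1, the inhibitor in PSN1 or the degrader in RH4, where 0.016%, 1.88% and 0% of genes were.

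The same agent was compared between lines at 8 h in 1 fit of all 36 libraries of that time, with 8 calls in 36 tests. The ID3 tests against PSN1, none of them called, rest on 1, 2 and 0 counts in PSN1 vehicle, inhibitor and degrader. They cannot show an ID3 effect in that line. ID2 separated MOLT4 from the other lines: the degrader effect was 6.51 ± 0.44 higher than in PSN1 (adjusted p = 1.09e-15) and 5.58 ± 0.50 higher than in RH4 (adjusted p = 1.77e-11), on the log2 scale. ID2 was the only member called for the degrader between MOLT4 and PSN1, where 17.2% of genes were called. Between MOLT4 and RH4 (16.3% of genes), the ID3 effect was lower in MOLT4 (-1.62 ± 0.31, adjusted p = 1.16e-04) and the TCF12 effect higher (0.89 ± 0.24, adjusted p = 0.00570, but -1.16 with spike-in scaling). No member was called for the degrader between PSN1 and RH4, where 0.455% of genes were. For the inhibitor, the ID3 effect was lower in MOLT4 than in RH4 (-2.56 ± 0.26, adjusted p = 1.43e-09), and so was that of ID1 (-1.27 ± 0.40, adjusted p = 0.0386), beside 8.39% of genes. The ID1 effect was also lower in PSN1 than in RH4 (-2.14 ± 0.33, adjusted p = 4.19e-05, 6.7% of genes), and the TCF12 effect was lower in MOLT4 than in PSN1 (-0.73 ± 0.25, adjusted p = 0.0472, 11.2% of genes). The ID1 call between MOLT4 and RH4 was lost without MOLT4 vehicle replicate 1 or 3, MOLT4 inhibitor replicate 2, 3 or 4, RH4 vehicle replicate 1, 2, 3 or 4, or RH4 inhibitor replicate 1, 3 or 4 (adjusted p up to 0.180). The TCF12 call was lost without MOLT4 vehicle replicate 1 or 4, MOLT4 inhibitor replicate 1 or 4, PSN1 vehicle replicate 3 or 4, or PSN1 inhibitor replicate 1, 3 or 4 (adjusted p up to 0.119).

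The summed TPM of ID over E protein transcripts, which no scaling between libraries touches, is given as a description of these shifts. In MOLT4 the median ratio was 1.56 (1.45 to 2.48) in vehicle and 0.346 (0.170 to 0.560) with degrader at 2 h, and 0.385 (0.152 to 0.865) with degrader at 4 h. At 8 h it was 3.82 (2.95 to 9.21) with degrader against 1.34 (1.25 to 1.55) in vehicle and 1.01 (0.802 to 1.22) with inhibitor. So degrader libraries held less ID than E protein RNA at 2 and 4 h and more at 8 h, when ID2 was high. PSN1 at 8 h was at 11.3 (6.38 to 25.0) in vehicle, 4.35 (3.81 to 4.68) with degrader and 2.63 (2.33 to 5.45) with inhibitor. RH4 at 8 h was at 11.1 (9.99 to 12.2) in vehicle, 9.55 (8.62 to 10.6) with degrader and 20.4 (11.2 to 22.2) with inhibitor, where the inhibitor range overlapped that of vehicle.

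E proteins act with partners, and those of the tissue-restricted class were mostly too low to test: 2 of 29 listed genes passed the filter in MOLT4, 0 in PSN1 and 4 in RH4. TAL1, the T-cell leukemia partner, fell in MOLT4 at 8 h with degrader (-1.52 ± 0.43, adjusted p = 0.00265) and with inhibitor (-1.07 ± 0.39, adjusted p = 0.0210). LYL1, a related partner, had at most 1 count in any MOLT4 group at 8 h and was not tested. NEUROD1, a neuronal and endocrine factor, had 0 counts in vehicle at 8 h and 11.1 to 28.1 CPM in the degrader libraries. Their mean of 19.4 CPM was at least 62.6-fold that of vehicle, taken as the level of 3 counts over the vehicle group. It was called higher under both scalings (adjusted p = 7.78e-07 with TMM and 1.41e-04 with spike-in scaling). Of the 8 h groups, only the degrader libraries were high enough for the filter, so the call restates these levels. In RH4, 1 of the 4 rose and 1 fell with degrader, and 3 rose with inhibitor. The myogenic factor MYOD1 rose with degrader (0.32 ± 0.11, adjusted p = 0.0471, spike-in scaled -0.54) and with inhibitor (1.52 ± 0.11, adjusted p = 2.17e-14, spike-in scaled -0.05). MYOG, which acts later in differentiation, fell with degrader (-0.90 ± 0.11, adjusted p = 2.98e-07) and rose with inhibitor (0.45 ± 0.11, adjusted p = 0.00121, spike-in scaled -1.13). List counts here and below are on the TMM scale at 8 h, and are to be read beside the shares of all genes called, which were 49.6%, 20.7% and 15.2% with degrader and 49.2%, 30.2% and 45.4% with inhibitor in MOLT4, PSN1 and RH4. With spike-in scaling the partner counts, higher and lower, were 1 and 1 in MOLT4 with degrader, 0 and 2 in RH4 with degrader and 0 and 2 in RH4 with inhibitor.

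Of 19 cofactors of E protein complexes, 12 were tested in MOLT4, where 1 rose and 5 fell with degrader at 8 h and 2 rose and 5 fell with inhibitor. The list median was -0.41 with degrader beside -0.18 over all genes. CBFB, the partner subunit of RUNX factors, rose with degrader (0.88 ± 0.32, adjusted p = 0.0179, spike-in scaled -1.96). MYB, a leukemia transcription factor, fell with degrader (-1.70 ± 0.21, adjusted p = 9.99e-10) and rose with inhibitor (1.72 ± 0.16, adjusted p = 1.00e-12, spike-in scaled 0.41). In PSN1, 3 of 10 tested cofactors fell with degrader (median -0.39, all genes -0.05), among them LMO4, a bridging protein (-1.61 ± 0.58, adjusted p = 0.0414), and with inhibitor 2 rose and 2 fell. In RH4, 2 of 12 fell with degrader (median -0.34, all genes -0.04) and 3 rose and 2 fell with inhibitor. CREBBP, a histone acetyltransferase, fell in RH4 with degrader (-0.97 ± 0.24, adjusted p = 0.00312) and rose with inhibitor (0.68 ± 0.22, adjusted p = 0.0121, spike-in scaled -0.89). With spike-in scaling the cofactor counts, higher and lower, were 0 and 12 (MOLT4), 0 and 7 (PSN1) and 0 and 7 (RH4) with degrader, and 0 and 8 (MOLT4), 0 and 5 (PSN1) and 0 and 10 (RH4) with inhibitor.

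Among 24 genes of the BMP and SMAD pathway that acts on ID genes, none rose with degrader at 8 h in any line. There 2 of 8 tested fell in MOLT4, 1 of 13 in PSN1 and 1 of 15 in RH4, with list medians of -0.80, -0.34 and -0.06. With inhibitor 3 of 8 rose and none fell in MOLT4, 2 of 13 rose and none fell in PSN1, and 4 of 15 rose and 1 fell in RH4. With spike-in scaling the pathway counts, higher and lower, were 0 and 8 (MOLT4), 0 and 8 (PSN1) and 0 and 9 (RH4) with degrader, and 0 and 0 (MOLT4), 0 and 3 (PSN1) and 0 and 9 (RH4) with inhibitor. BMP4, a ligand, fell in MOLT4 with degrader (-1.84 ± 0.66, adjusted p = 0.0188). ACVR2A, a receptor, fell in PSN1 with degrader (-1.37 ± 0.50, adjusted p = 0.0481). GDF15, a distant ligand of the family, fell in RH4 with degrader (-1.73 ± 0.39, adjusted p = 0.00127) and inhibitor (-2.49 ± 0.45, adjusted p = 1.83e-05).

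Of 16 lymphoid target genes of E proteins, 11 were tested in MOLT4: 2 rose and 4 fell with degrader (median -0.44), and none rose and 3 fell with inhibitor. PTCRA, the surrogate alpha chain of the pre-T-cell receptor, rose with degrader (1.36 ± 0.48, adjusted p = 0.0182, spike-in scaled -1.54) and GFI1, a transcriptional repressor, fell (-1.65 ± 0.52, adjusted p = 0.00701). Outside the lymphoid line 4 were tested in PSN1 and 3 in RH4. NOTCH3, a receptor, held 4.53 to 10.5 CPM in the PSN1 degrader libraries, against 8 counts in the vehicle group and 5 with inhibitor. It was called higher with degrader (3.24 ± 0.84, adjusted p = 0.00447, spike-in scaled 2.22). Among the 8 h groups of PSN1, only the degrader libraries were high enough for the filter, so this call restates their levels. The spike-in scaled counts of lymphoid targets in MOLT4 were 0 and 11 with degrader and 0 and 8 with inhibitor. Of 7 CDK inhibitor genes, some of which E proteins are known to activate, 5 were tested in MOLT4 and 3 rose with degrader at 8 h (median 1.21). CDKN1C held 4.61 to 12.2 CPM in the degrader libraries, against 2 counts in the whole vehicle group, and was called higher under both scalings (adjusted p = 5.94e-05 with TMM and 0.0320 with spike-in scaling). As for NEUROD1, only the degrader libraries among the 8 h groups were high enough for the filter, so this call restates those levels. The list counts in MOLT4 with degrader became 1 and 3 with spike-in scaling. In RH4 CDKN2A rose with degrader (0.61 ± 0.13, adjusted p = 0.00113, spike-in scaled -0.28) and inhibitor (1.09 ± 0.14, adjusted p = 1.12e-08, spike-in scaled -0.49). In PSN1 none of 5 was called with degrader, and 1 fell with inhibitor, where spike-in scaling gave 0 and 1, and 0 and 3, higher and lower.

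All 7 genes for ID protein turnover were tested, and 1 rose and 4 fell in MOLT4 with degrader at 8 h (median -1.18). WDR48, the cofactor of the deubiquitinase USP1, fell (-1.93 ± 0.34, adjusted p = 5.55e-06), and CDC27, a subunit of the anaphase-promoting complex, rose (0.71 ± 0.18, adjusted p = 7.44e-04, spike-in scaled -2.05). Spike-in scaling put all 7 lower in MOLT4 with degrader. In PSN1 none of the 7 was called with either agent at 8 h, against 0 and 5 with degrader and 0 and 3 with inhibitor, higher and lower, with spike-in scaling. In RH4 CDC20, an activator of that complex, fell with degrader (-0.46 ± 0.11, adjusted p = 0.00162) and inhibitor (-1.13 ± 0.11, adjusted p = 2.91e-11). Among other helix-loop-helix repressors, 1 of 12 was tested in MOLT4 and not called at 8 h, BHLHE41 fell in PSN1 with degrader (-2.13 ± 0.65, adjusted p = 0.0158), and HEY1, a Notch target, fell in RH4 with degrader (-2.17 ± 0.65, adjusted p = 0.0179).

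The transcripts of the targeted machinery moved in part. Of 9 genes of CDK9 and P-TEFb, 4 rose and 1 fell with degrader at 8 h in MOLT4, 1 rose and 3 fell in PSN1, and 1 rose and 2 fell in RH4. With spike-in scaling these counts, higher and lower, were 0 and 9 (MOLT4), 0 and 4 (PSN1) and 0 and 3 (RH4). With inhibitor 5 rose and 3 fell in MOLT4, 3 rose and 2 fell in PSN1, and 4 rose and 4 fell in RH4. Spike-in scaling made these 1 and 4, 2 and 4, and 1 and 5. The genes named next, up to HEXIM2, are given with degrader. CCNT2, a cyclin partner of CDK9, rose in MOLT4 (1.39 ± 0.31, adjusted p = 2.18e-04, spike-in scaled -1.42), PSN1 (1.31 ± 0.30, adjusted p = 0.00113, spike-in scaled 0.35) and RH4 (1.37 ± 0.26, adjusted p = 1.42e-04, spike-in scaled 0.50). MEPCE, which caps the small RNA that holds P-TEFb inactive, fell in MOLT4 (-2.90 ± 0.48, adjusted p = 2.27e-06), PSN1 (-1.62 ± 0.35, adjusted p = 7.57e-04) and RH4 (-2.04 ± 0.41, adjusted p = 4.35e-04). HEXIM2, an inhibitor of P-TEFb, had the largest fall of the list in PSN1 (-2.58 ± 0.91, adjusted p = 0.0388). The CDK9 transcript itself was at 0.09 ± 0.33 (adjusted p = 0.840) with degrader and 1.16 ± 0.30 (adjusted p = 0.00118, spike-in scaled -0.17) with inhibitor in MOLT4. With inhibitor it was also higher in RH4 (1.48 ± 0.31, adjusted p = 1.62e-04, spike-in scaled -0.06) and not called in PSN1 (0.18 ± 0.39). With degrader it was not called in PSN1 (0.12 ± 0.39) or RH4 (0.64 ± 0.31). A degrader acts on the protein, so its transcript does not check the labels.

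Genes with the most similar pattern to a member were ranked over the 15 comparisons against vehicle, by the root mean square difference in log2 fold change among 9338 genes tested in all lines. The nearest to ID1 was NFKBIA, the inhibitor of NF-kB, and the list ran NFKBIA (0.394), LINC01311 (0.554) and PLD5P1 (0.571). For ID2 the nearest genes were much farther away: NCR3LG1 (1.05), ZNF768 (1.11) and GATAD1 (1.13). TCF3 was nearest to VRK1 (0.189), IPO9 (0.193) and CHMP2B (0.219), TCF12 to CTDSPL2 (0.189), HELZ (0.243) and MYH9 (0.249), and TCF4 to HDAC10 (0.350), ENSG00000276698 (0.369) and RAB4B (0.369). ID3 was not tested against vehicle in PSN1 and was not ranked.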

How the data were processed

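RNA was measured by SMART-seq2 with Nextera XT libraries, unstranded and without molecular identifiers, with ERCC and SIRV spike-in RNA, per the labels' protocols. The authors deposited expected counts per gene and log2(TPM + 1) values for each line. Salmon and hg38 are named in the submitters' processing notes. Neither the version of Salmon nor its annotation is given in the sources used here. Expected counts were already whole or were rounded to whole numbers. Spike-ins (99 entries) and 47 PAR_Y entries were left out, and 62639 of 62710 genes matched a symbol. Deposited log2 values were turned back to TPM and rescaled without spike-ins, to compare levels between genes.

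Groups were compared with edgeR 4.0.16 in R 4.3.3: TMM scaling, a minimum count of 10 through filterByExpr, robust quasi-likelihood tests and Benjamini-Hochberg adjustment over all genes tested, called at 0.05. Each line had its own fit of all its groups (11664, 12471 and 12058 genes in MOLT4, PSN1 and RH4), lines were compared in a joint fit of the 8 h libraries (13843 genes), and vehicle libraries in a fit with time as a covariate (14213 genes). The errors of log2 fold changes are the fold change divided by the square root of the F statistic. There were 42 comparisons in 6 families and 241 tests of members. All members are reported. List genes were named where, at 8 h with degrader, they were the called gene with the largest change in a direction, and TAL1, LYL1, MYOD1, MYOG and CDK9 were named in any case, CDK9 after its values were seen. The fits were checked on simulated data.

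Alternatives were relative log expression scaling, DESeq2 1.42.0, no filter, spike-in scaling, the 2 compared groups alone, a replicate block and leaving out each library. Leaving out 3 MOLT4 libraries with high spike-in shares and the PSN1 2 h replicates 4 was chosen after seeing the data. The members and lists were chosen with earlier results of these data known. Promoter windows came from RefSeq on GRCh38.p14. No 2 replicates agreed within sampling noise.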

Additional observations from a re-analysis of the deposited data

Results flagged for a closer look

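In 9 of 124 groups of 4 libraries, 1 library lay far from the other 3, where chance gives about 1 in 20. These were ID2 in MOLT4 vehicle at 2 h (6.15 CPM, the others 1.82 to 2.38), ID2 in MOLT4 degrader at 2 h (4.02 CPM, the others up to 0.598), ID2 in PSN1 degrader at 8 h (24.9 CPM, the others 17.4 to 17.5), ID3 in MOLT4 degrader at 4 h (5.33 CPM, the others up to 1.22) and TCF12 in RH4 inhibitor at 8 h (197.0 CPM, the others 132 to 136). TCF4 had a low library in MOLT4 vehicle at 8 h (4.53 CPM, the others 7.75 to 8.10) and a high one in MOLT4 degrader at 4 h (14.0 CPM, the others up to 11.4). ID3 in PSN1 vehicle at 2 h (5.61 CPM) and degrader at 2 h (10.2 CPM) stood apart in the replicates 4 that also carried RH4 markers.

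An agent's effect at 8 h differed between lines in 8 tests of the difference (log2 scale, edgeR adjusted p under 0.05). For the degrader these were ID2 in MOLT4 minus PSN1 (6.51) and minus RH4 (5.58), and ID3 (-1.62) and TCF12 (0.89) in MOLT4 minus RH4. For the inhibitor they were TCF12 in MOLT4 minus PSN1 (-0.73), ID1 (-1.27) and ID3 (-2.56) in MOLT4 minus RH4, and ID1 in PSN1 minus RH4 (-2.14).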

How the results depend on the processing

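Depth limits the low transcripts most: ID2 in MOLT4, ID1 in MOLT4, TCF4 and ID3 in PSN1 rest on few counts. Spike-in scaling moved the results most. Calls against vehicle went from 17 higher and 18 lower to 1 and 42. Leaving out the high spike-in MOLT4 libraries with that scaling was done only in MOLT4 comparisons that held their groups. With TMM kept in all other comparisons, this mixed count was 11 higher, so it does not show rises regained under spike-in scaling. Between the agents, lower calls went from 13 to 8, and higher calls from 5 to 3 when only the 2 groups were fitted. For 8 h against 4 h, higher calls went from 2 to 0 and lower from 1 to 2 with spike-in scaling. The mixed count, without the high spike-in libraries in MOLT4 and with TMM kept in the other lines, was 1 higher and 2 lower. Higher calls went to 4 with DESeq2, and lower to 0 without a filter.

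Directions that turned with spike-in scaling were, for TCF12, degrader in MOLT4 at 4 and 8 h (-0.41, -2.05; -0.18, -1.75 without the high spike-in libraries), its change between them (-1.65; -1.57), inhibitor in MOLT4 at 2, 4 and 8 h (-0.34, -0.68, -0.72; that at 4 h -0.39 without those libraries), degrader against inhibitor in MOLT4 at 8 h (-1.34; -1.04) and in RH4 at 4 h (0.0931), inhibitor in RH4 at 4 and 8 h (-0.37, -0.79), and degrader in MOLT4 minus PSN1 (-1.63) and minus RH4 (-1.16). TCF3 turned in MOLT4 degrader against inhibitor at 8 h (-1.09; -0.81), RH4 inhibitor at 4 h (-1.08) and degrader in MOLT4 minus PSN1 (-1.79). TCF4 turned with degrader in MOLT4 at 4 h (-0.00629) and 8 h (-1.22; -1.03) and inhibitor in RH4 at 4 h (-1.01). ID1 turned with inhibitor in RH4 at 4 and 8 h (-0.92, -0.81) and ID3 with degrader in RH4 at 8 h (-0.76). The cause was not tested.

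Leaving out 1 library gave 15 to 18 higher and 16 to 19 lower calls against vehicle, 4 to 6 and 12 to 13 between the agents, 1 to 3 and 0 to 2 for 8 h against 4 h, 0 over time in vehicle, 3 to 4 and 3 to 6 between lines, and 5 to 6 and 11 to 12 between vehicle lines. Leaving out 1 library added a call in 12 tests, which are named with the lowest adjusted p they reached: ID2 in MOLT4 degrader effect 8 h against 4 h without degrader replicate 2 at 4 h, or degrader replicate 4 at 8 h (0.0286), TCF3 in MOLT4 degrader effect 8 h against 4 h without degrader replicate 2 at 8 h (0.0183), TCF4 in MOLT4 degrader versus inhibitor 4 h without inhibitor replicate 2 (0.0382), ID2 in MOLT4 degrader versus vehicle 2 h without degrader replicate 1 (0.0303), TCF4 in PSN1 degrader versus inhibitor 8 h without inhibitor replicate 4 (0.0195), ID1 in PSN1 degrader versus vehicle 2 h without vehicle replicate 2 (0.0382), TCF12 in PSN1 degrader versus vehicle 8 h without vehicle replicate 1 or 2 (0.0139), ID2 in PSN1 inhibitor versus vehicle 4 h without vehicle replicate 1, or inhibitor replicate 3 (0.0400), TCF4 in PSN1 inhibitor versus vehicle 8 h without inhibitor replicate 4 (0.0287), TCF4 in RH4 inhibitor versus vehicle 8 h without vehicle replicate 3 (0.0251), ID1 in degrader effect 8 h PSN1 minus RH4 without PSN1 vehicle replicate 1 (0.0380) and ID2 in inhibitor effect 8 h MOLT4 minus PSN1 without PSN1 inhibitor replicate 3 (0.0388). With the replicate number as a block there were 18 higher and 22 lower calls against vehicle, 5 and 13 between the agents, 3 and 1 for 8 h against 4 h and 0 and 0 over time. The block ended no call of a member. Deviations of same-numbered libraries correlated above 0.1 in 0 of 136, 24 of 112 and 10 of 60 pairs in MOLT4, PSN1 and RH4, with median r of 0.0218, 0.0654 and 0.0545 against -0.0095, -0.030 and -0.0253 for other numbers. Not every pair passed 0.1, so the numbers were not taken as pairs. Counts over all genes moved by more than 1.5 times in 29 of 42 comparisons with spike-in scaling, 10 with DESeq2, 8 without a filter, 8 of 33 with the block, 2 of 22 with 2 groups and 0 with relative log expression.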
